A study of Mus musculus with 16 samples.

Results

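The constitutive proteasome subunits are the genes of the standard 26S proteasome, taken here as every protein-coding gene of the deposited table whose symbol is Psma, Psmb, Psmc or Psmd followed by a number. The interferon-inducible catalytic subunits Psmb8, Psmb9 and Psmb10 were kept apart. The rule found 36 genes among 36722, and 34 of them reached the mean needed for testing, as did 13385 genes in all. Psma8 and Psmb11 were too low to test. Psmc3ip, whose symbol runs on in letters and which encodes no subunit, was not a member.

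The tissue was the L3 to L5 dorsal root ganglia (DRG), the paired clusters of sensory neurons and glia beside the spinal cord, from C57BL/6 mice with a paw inflamed by carrageenan (20 µl of a 2% solution). All groups were injected intrathecally on day 6, and tissue was collected after 6 hours. The vehicle group (5 libraries) received PBS, the fusion protein group (6 libraries) 1 µg of IL4-10 FP, in which both cytokines are joined, and the combination group (5 libraries) 0.5 µg each of unlinked IL4 and IL10. No library came from mice without carrageenan, and the labels do not say that each library came from a separate mouse, so p-values measure the spread between these libraries, which may be technical.

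The proteasome is the barrel-shaped protease that degrades proteins tagged with ubiquitin. Its 20S core stacks rings of α subunits, which gate the entrance, around rings of β subunits, of which Psmb5, Psmb6 and Psmb7 carry the proteolytic sites. The 19S regulatory particle caps the barrel: its base holds the ATPases Psmc1 to Psmc6, which unfold substrates and push them inward, and its lid removes ubiquitin. Sensory neurons, with their long axons, depend on this system for protein turnover. Subunit genes are known to be transcribed together, with the factor Nfe2l1 (Nrf1) raising them through antioxidant response elements when proteasome activity falls.

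Because the subunits are known to be regulated together, the 250 bases before the start sites of 3 of them are shown first: the catalytic subunits Psmb5 and Psmb6, and the α subunit Psma2, which differed between the treatments. The sequences are from RefSeq on GRCm38.p6, written 5′ to 3′ on the gene's strand, at chr14:54617996-54618245 (minus strand) for Psmb5, chr11:70525107-70525356 (plus) for Psmb6 and chr13:14612992-14613241 (plus) for Psma2. Capitals mark exact matches, on either strand, to the antioxidant response element core TGACNNNGC, the CCAAT box, the GC box GGGCGG or the ETS core CCGGAAG; no 2 matches shown overlap.
Psmb5: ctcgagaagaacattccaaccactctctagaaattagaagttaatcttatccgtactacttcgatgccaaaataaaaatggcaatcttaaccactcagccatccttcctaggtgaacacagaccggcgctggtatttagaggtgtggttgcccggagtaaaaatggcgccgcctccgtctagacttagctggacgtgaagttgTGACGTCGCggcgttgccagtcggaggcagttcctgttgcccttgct
Psmb6: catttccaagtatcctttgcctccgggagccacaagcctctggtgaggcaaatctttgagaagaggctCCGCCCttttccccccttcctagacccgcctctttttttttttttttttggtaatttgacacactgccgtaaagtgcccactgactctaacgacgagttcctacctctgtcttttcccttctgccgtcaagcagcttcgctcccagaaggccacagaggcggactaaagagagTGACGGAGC
Psma2: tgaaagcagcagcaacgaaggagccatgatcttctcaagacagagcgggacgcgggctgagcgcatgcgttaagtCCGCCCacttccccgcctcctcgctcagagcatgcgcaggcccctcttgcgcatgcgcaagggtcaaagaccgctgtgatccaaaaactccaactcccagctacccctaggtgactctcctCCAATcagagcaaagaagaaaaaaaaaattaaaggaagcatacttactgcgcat
The Psmb5 window held 1 match, an antioxidant response element core between 47 and 39 bases before the start. The Psmb6 window held the same element in its last 9 bases and a GC box, and the Psma2 window a GC box and a CCAAT box. Of the 36 members, 29 had a promoter in the table, with 31 promoters in all. The antioxidant response element core was present in 5 of the 31 (16.1%, against 10.2% of 32851 promoters of the same length), those of Psmb5, Psmb6, Psmc6, Psmd9 and Psmd12. The ETS core was present in 10 (32.3%, against 6.91%), the GC box in 17 (54.8%, against 32.7%) and the CCAAT box in 12 (38.7%, against 33.8%). These matches are letters in a window and were not tested against the expression values.

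The deposited values are variance-stabilised log2 values, on which a difference of 1 is close to a doubling for well expressed genes. They decoded to whole scaled values, which had been scaled between libraries by a step the sources used here do not give, so read depth is unknown. The scaled values summed to between 16.7 M and 20.9 M in each library. All 15 sensory neuron markers were tested, with summed scaled values of 258501 to 331616 in vehicle, 245961 to 383144 in fusion protein and 259445 to 342234 in combination libraries, while 4 of 7 spinal cord markers, Mog, Opalin, Chat and Mnx1, had mean scaled values of at most 3. The other 3 were tested, and the 7 summed to 657 to 1358, 721 to 2049 and 598 to 790 in the same groups. The 4 skeletal muscle markers summed to 25 to 2704, 32 to 592 and 18 to 695, so muscle RNA varied widely between vehicle libraries. The 8 neutrophil and bone marrow markers summed to 1707 to 4706, 2130 to 6790 and 2899 to 4740. The part of such tissue in the proteasome differences was not tested. The combination libraries all carry label numbers of 12 to 19, which 2 fusion protein libraries and 1 vehicle library also carry, the others having numbers of 1 to 8. What these numbers stand for is not given. With no combination library among the low numbers, label number and combination treatment cannot be told apart there.

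Proteasome transcripts rose together after both treatments. With the fusion protein 30 of the 34 tested subunits were higher than with vehicle, none was lower and 4 did not pass (adjusted p under 0.05, limma), where 12.0% of all tested genes were higher and 13.7% lower. With the combination 27 were higher, 1 lower and 6 did not pass, against 24.2% and 12.3% of all tested genes. The median difference of the subunits was 0.30 on the log2 scale with the fusion protein and 0.40 with the combination, beside -0.02 and 0.06 for all tested genes. Under quantile normalization the medians were 0.31 and 0.23, with 29 and 22 subunits higher, beside 1938 and 2550 of all 13385 tested genes. Once GC and length trends were taken out the medians were 0.22 and 0.25. Both comparisons use the same vehicle libraries. With label number as a covariate 21 subunits were higher with the combination and 30 with the fusion protein. Of all tested genes 2706 and 1701 were then higher. Psmb2, Psmc3, Psmc4, Psmc5, Psmd2 and Psmd13 no longer passed with the combination. No combination library has a low number, so this covariate is estimated from the vehicle and fusion protein libraries alone. Using only libraries numbered 1 to 8, a choice made after seeing the data, 23 subunits were higher with the fusion protein. So were 1026 of all tested genes.

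The rise was present in every treated library. The median of the 34 subunits, each taken relative to its vehicle mean, lay between -0.04 and 0.02 in the 5 vehicle libraries, between 0.25 and 0.34 in the 6 fusion protein libraries and between 0.36 and 0.44 in the 5 combination libraries. On the deposited values the groups did not overlap in this median. With trends removed it lay between 0.15 and 0.26 with the fusion protein and 0.19 and 0.27 with the combination. The treated groups then overlapped, both above vehicle (-0.03 to 0.06). From 31 to 33 subunits were above their vehicle mean in each fusion protein library, and from 30 to 32 in each combination library. Their share of a library's summed scaled values was 0.438% ± 0.020 with vehicle (SD, n = 5), 0.541% ± 0.019 with the fusion protein (n = 6) and 0.526% ± 0.018 with the combination (n = 5). All fusion protein values lay above all vehicle values for 21 subunits (7.76% of all tested genes did so), and all combination values for 25 (15.1%).

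**Figure D1:**
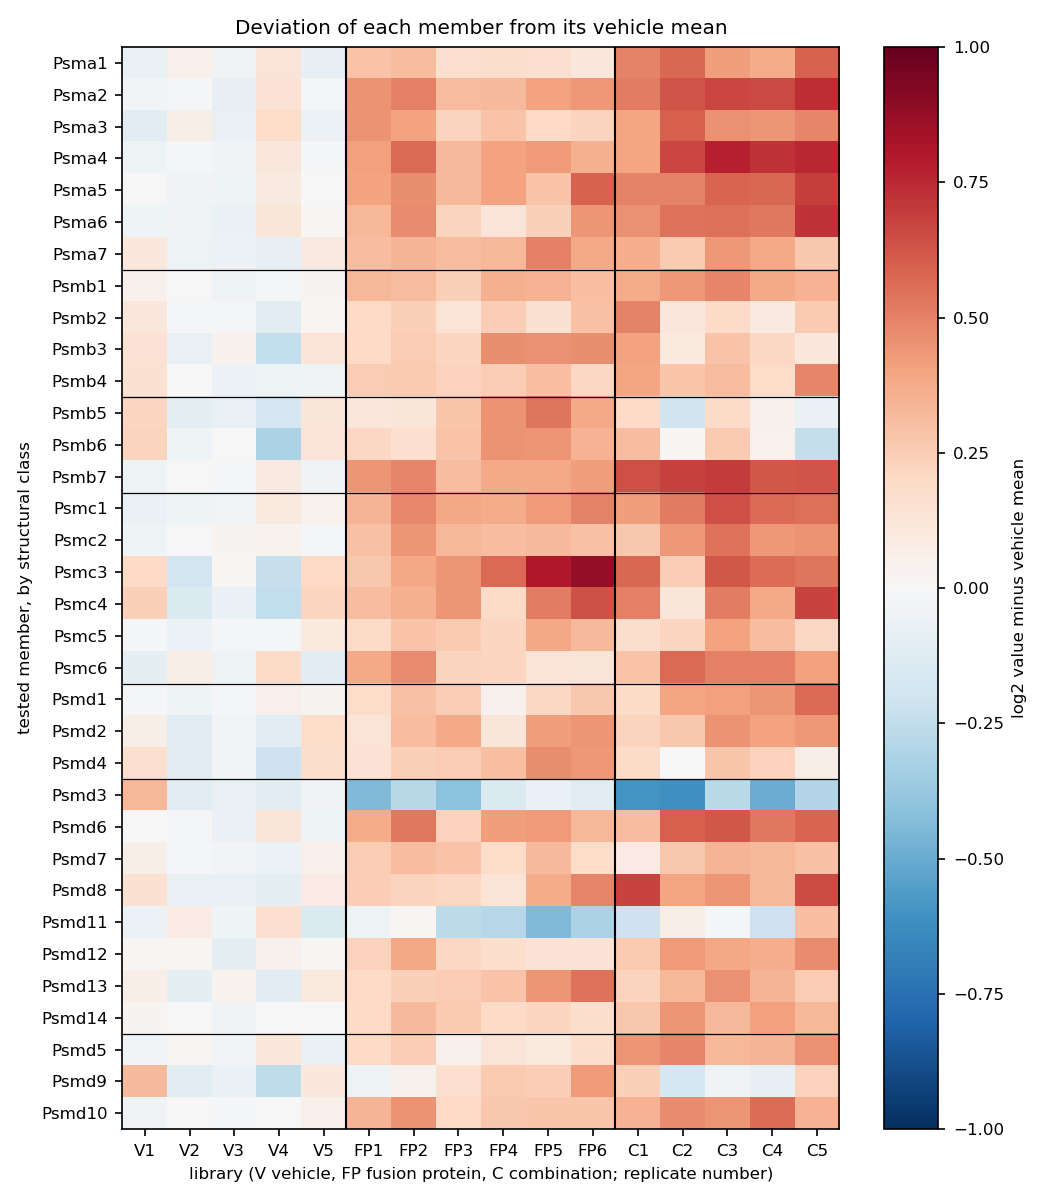
Each tested subunit (vertical axis, by structural class) in each library (horizontal axis; V vehicle, FP fusion protein, C combination), coloured by its log2 value minus its vehicle mean. Most subunits are red in all 11 treated libraries, while Psmd3 is blue in them.

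In bulk tissue, less RNA per cell and fewer cells of a type cannot be told apart. Macrophage markers moved with the fusion protein: 5 of 10 were higher than with vehicle, none lower, and their summed scaled values were 1786 to 3289 with vehicle, 2667 to 4317 with the fusion protein and 2336 to 3181 with the combination. No macrophage marker was at 0, and with the combination 1 of 10 was higher. Of 6 satellite glia markers, 4 were higher with the combination, and 1 was lower with the fusion protein. Their sums were 42070 to 60932, 42955 to 78393 and 50469 to 59897 in the same order of groups. The combination sums lay within the vehicle range. Of 5 fibroblast markers, 2 were higher and 2 lower with the combination, and their sums there, 16762 to 22916, lay above those of vehicle, 13473 to 16204 (14898 to 18244 with the fusion protein, 1 higher and 2 lower). Of 15 sensory neuron markers, 5 were higher and 1 lower with the combination, and 2 higher with the fusion protein. Beside these counts, 12.0% of all tested genes were higher and 13.7% lower with the fusion protein, and 24.2% and 12.3% with the combination. The counts of higher sensory neuron markers lay near these shares. The part of these cell types in the proteasome differences was not tested.

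**Figure D2:**
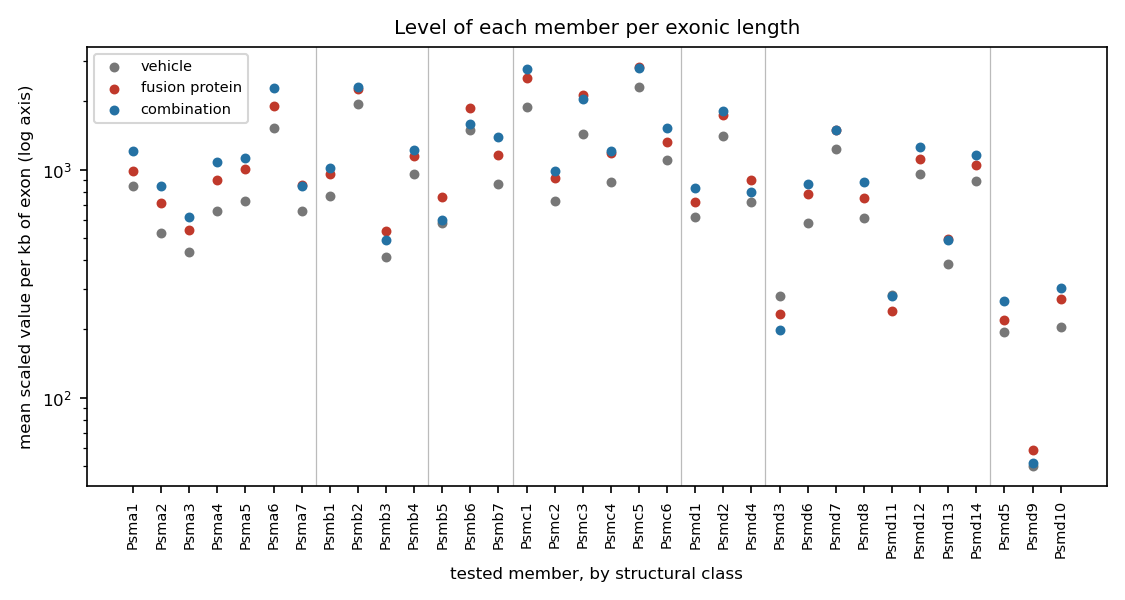
Mean scaled value per kilobase of exon (vertical log axis) of each tested subunit (horizontal axis, by structural class) in each group (colours). Levels run from 50.3 for Psmd9 to 2312 for Psmc5 with vehicle.

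Subunits differed in level. Per kilobase of exon, mean scaled values with vehicle ran from 50.3 for the assembly chaperone Psmd9 to 2312 for the ATPase Psmc5. Among the α subunits the same quantity ran from 437 for Psma3 to 1521 for Psma6, and among the catalytic subunits it was 586 for Psmb5, 868 for Psmb7 and 1493 for Psmb6. The lid subunits Psmd3 and Psmd11, at 281 and 282, were the lowest of the core and regulatory particle in vehicle. The exonic lengths are of all annotated exons of a gene, so genes with many rare transcripts have levels per length that are too low.

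The α ring holds the subunits that gate the barrel. All 7 members were higher in both comparisons, by a median of 0.36 with the fusion protein and 0.56 with the combination on the log2 scale. With trends of GC content and gene length removed, 5 and 7 were higher, by medians of 0.22 and 0.27. Psma1 and Psma6 then lost the fusion protein call, each at 0.06 (adjusted p = 0.355 and 0.495). Psma4 had the largest difference of the ring with the fusion protein. It measured 10.67, 10.71, 10.69, 10.83 and 10.71 with vehicle, 11.05, 11.13 and 11.28 with the fusion protein (lowest, median and highest, as for all fusion protein values below) and 11.12, 11.39, 11.50, 11.44 and 11.48 with the combination. Both treated groups lay above every vehicle library, and combination library 1 lay below the other 4. The difference was 0.42 (SE 0.07, adjusted p = 0.00042) with the fusion protein and 0.66 (SE 0.07, adjusted p = 7.3e-06) with the combination.

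Psma1 had the smallest difference of the ring with the fusion protein. Its values were 11.30, 11.41, 11.32, 11.49 and 11.28 with vehicle, 11.48, 11.53 and 11.67 with the fusion protein, and 11.86, 11.93, 11.78, 11.73 and 11.95 with the combination. Only the lowest fusion protein value reached into the vehicle range, and the combination libraries lay above all others. The differences were 0.20 (SE 0.06, adjusted p = 0.0239) and 0.49 (SE 0.07, adjusted p = 3.09e-05). Without vehicle library 3 or 5 the first of these lost its call (adjusted p = 0.0593 and 0.0629).

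Psma2 measured 10.99, 10.99, 10.93, 11.16 and 10.99 with vehicle, 11.33, 11.43 and 11.51 with the fusion protein and 11.53, 11.65, 11.69, 11.68 and 11.75 with the combination. The 3 groups formed separate steps. Psma6 measured 10.92, 10.93, 10.90, 11.09 and 10.99, then 11.10, 11.25 and 11.44, then 11.42, 11.51, 11.52, 11.50 and 11.69 in the same order. Its treated groups met at 11.42 to 11.44, and both lay above vehicle. The other 3 α subunits differed from vehicle by 0.30 and 0.47 (Psma3), 0.41 and 0.57 (Psma5) and 0.36 and 0.34 (Psma7) with the fusion protein and the combination.

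The structural β subunits have no active site. All 4 were higher with the fusion protein, by 0.31 (Psmb1), 0.21 (Psmb2), 0.34 (Psmb3) and 0.25 (Psmb4). With the combination Psmb1, Psmb2 and Psmb4 were higher, by 0.40, 0.23 and 0.33, and Psmb3 did not pass at 0.22 (adjusted p = 0.0556). Psmb3 did pass without combination library 2 or 5 or vehicle library 1 or 5 (adjusted p = 0.0409 to 0.0487). Psmb3 measured 10.21, 9.99, 10.11, 9.82 and 10.20 with vehicle, 10.27, 10.42 and 10.53 with the fusion protein, and 10.47, 10.16, 10.35, 10.27 and 10.17 with the combination. Every fusion protein library lay above vehicle, while 2 combination libraries lay within its range. Psmb2 measured 11.38, 11.26, 11.25, 11.15 and 11.28, then 11.40, 11.48 and 11.56, then 11.76, 11.38, 11.46, 11.35 and 11.52. Its highest combination library, replicate 1, stood above all the others. The fusion protein call of Psmb2 was lost without vehicle library 2, 3, 4 or 5 or fusion protein library 4 or 6 (adjusted p = 0.052 to 0.0874). Once the trends were removed, Psmb4 lost its fusion protein call (0.13, adjusted p = 0.0729). Psmb2 differed from vehicle by -0.05 with the fusion protein and -0.11 with the combination after that step, and neither passed (adjusted p = 0.621 and 0.257). Under quantile normalization neither call of Psmb2 held (adjusted p = 0.0658 and 0.406).

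All 3 catalytic subunits were higher with the fusion protein, and with the combination Psmb7 was higher while Psmb5 and Psmb6 did not pass. With trends removed, Psmb7 alone of the 3 kept the fusion protein call, Psmb5 being at 0.12 (adjusted p = 0.173) and Psmb6 at 0.20 (adjusted p = 0.0659). Psmb7 (ENSMUSG00000026750, chr2:38588036-38644087, minus strand), the trypsin-like subunit, measured 11.55, 11.60, 11.58, 11.69 and 11.56 with vehicle, 11.90, 11.99 and 12.09 with the fusion protein, and 12.24, 12.28, 12.29, 12.21 and 12.22 with the combination. The groups were fully separate, with the combination highest. The difference was 0.40 (SE 0.05, adjusted p = 6.26e-05) with the fusion protein and 0.65 (SE 0.06, adjusted p = 7.47e-07) with the combination. When each library was left out in turn, these ranged from 0.39 to 0.43 and from 0.64 to 0.68.

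Psmb5 (ENSMUSG00000022193, chr14:54614119-54618022, minus strand), the chymotrypsin-like subunit, measured 9.54, 9.24, 9.26, 9.17 and 9.46 with vehicle, 9.45, 9.66 and 9.87 with the fusion protein, and 9.53, 9.13, 9.53, 9.38 and 9.27 with the combination. The combination libraries covered nearly the same range as vehicle, and the fusion protein libraries overlapped its upper end. The difference was 0.31 (SE 0.10, adjusted p = 0.0212) with the fusion protein and 0.03 (SE 0.10, adjusted p = 0.814) with the combination. The first call was lost without vehicle library 2, 3 or 4 (adjusted p = 0.0571, 0.0535 and 0.0637).

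Psmb6 (ENSMUSG00000018286, chr11:70525367-70527858, plus strand), the caspase-like subunit, measured 11.72, 11.46, 11.50, 11.18 and 11.63 with vehicle, 11.67, 11.82 and 11.95 with the fusion protein, and 11.81, 11.51, 11.76, 11.54 and 11.26 with the combination. Vehicle library 4 and combination library 5 were the lowest of their groups, and all groups overlapped. The difference was 0.32 (SE 0.10, adjusted p = 0.0281) with the fusion protein and 0.08 (SE 0.11, adjusted p = 0.607) with the combination. The first call was lost without vehicle library 2, 3 or 4 or fusion protein library 4 or 5, the highest adjusted p being 0.0925 without vehicle library 4, and under quantile normalization (adjusted p = 0.0671).

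**Figure D3:**
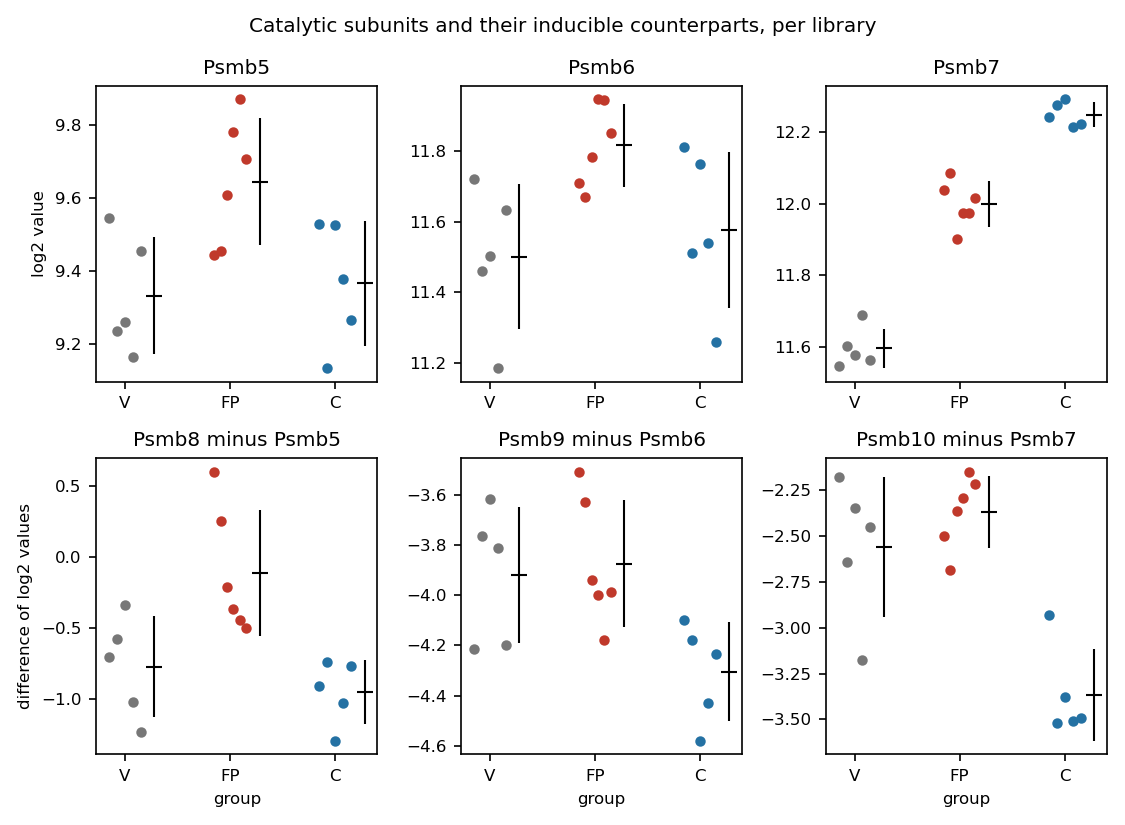
Top, log2 value (vertical axis) of each catalytic subunit in each library, by group (horizontal axis; points are libraries, black marks the mean with SD). Bottom, the log2 value of the inducible counterpart minus that of the constitutive subunit: Psmb7 rises in 3 separate steps, and all combination libraries lie below the fusion protein libraries for Psmb8 minus Psmb5 and Psmb10 minus Psmb7.

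All 6 ATPases of the 19S base were higher in both comparisons, by a median of 0.37 with the fusion protein and 0.45 with the combination. With trends removed Psmc5 lost both calls (0.10, adjusted p = 0.183, and 0.14, adjusted p = 0.0572). Under quantile normalization Psmc3, Psmc4 and Psmc5 lost the combination call (adjusted p = 0.0789, 0.0512 and 0.203). Psmc3 had the largest difference of all subunits with the fusion protein. It measured 12.10, 11.71, 11.92, 11.67 and 12.10 with vehicle, 12.17, 12.40 and 12.78 with the fusion protein, and 12.47, 12.14, 12.52, 12.46 and 12.44 with the combination. Both treated groups lay above vehicle, by 0.56 (SE 0.11, adjusted p = 0.00153) and 0.51 (SE 0.12, adjusted p = 0.00248). With label number as a covariate, the combination difference of Psmc3 was 0.22 and did not pass (adjusted p = 0.168).

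Psmc6 had the smallest difference of the ATPases with the fusion protein. It measured 11.86, 12.02, 11.90, 12.14 and 11.84 with vehicle, 12.07, 12.17 and 12.43 with the fusion protein and 12.23, 12.52, 12.46, 12.45 and 12.37 with the combination. The fusion protein libraries overlapped vehicle library 4, and the combination libraries did not. Its differences were 0.26 and 0.45, and the first lost its call without vehicle library 3 or 5 (adjusted p = 0.0555 and 0.059). Psmc1, Psmc2, Psmc4 and Psmc5 were higher by 0.42, 0.33, 0.41 and 0.28 with the fusion protein and by 0.54, 0.43, 0.44 and 0.26 with the combination.

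The other subunits of the base are the scaffolds Psmd1 and Psmd2 and the ubiquitin receptor Psmd4. All 3 were higher with the fusion protein and the scaffolds also with the combination. Psmd4 measured 11.22, 10.95, 11.04, 10.86 and 11.23 with vehicle, 11.20, 11.34 and 11.53 with the fusion protein, and 11.25, 11.05, 11.34, 11.29 and 11.12 with the combination. Both treated groups overlapped vehicle. Its difference was 0.31 with the fusion protein (adjusted p = 0.0106) and 0.15 with the combination, which did not pass (adjusted p = 0.178). Psmd1 measured 12.16, 12.14, 12.16, 12.23 and 12.21 with vehicle, 12.23, 12.41 and 12.48 with the fusion protein and 12.37, 12.58, 12.59, 12.62 and 12.75 with the combination. The combination libraries stood above all vehicle libraries, and 1 fusion protein library did not. Psmd1 differed from vehicle by 0.21 and 0.40, and Psmd2 by 0.30 and 0.35. The fusion protein call of Psmd1 was lost without vehicle library 2 or 3 or fusion protein library 2, 3 or 6, at adjusted p values of 0.0516 to 0.0712.

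The lid held differences on both sides of zero. With the fusion protein 6 of its 8 members were higher, and with the combination 6 were higher and 1 lower. Psmd6 led with the fusion protein, measuring 10.78, 10.78, 10.72, 10.90 and 10.74 with vehicle, 11.01, 11.18 and 11.31 with the fusion protein and 11.09, 11.39, 11.41, 11.31 and 11.37 with the combination. Both treated groups lay above vehicle, by 0.38 and 0.53. The deubiquitinase Psmd14 was higher by 0.23 and 0.36, and its non-catalytic partner Psmd7 by 0.26 and 0.26. With trends removed Psmd14 lost both calls, at 0.075 (adjusted p = 0.24) and 0.043 (adjusted p = 0.537), and Psmd7 the fusion protein call, at 0.14 (adjusted p = 0.0633). Under quantile normalization Psmd7 lost the combination call, at 0.11 (adjusted p = 0.111). Psmd8, Psmd12 and Psmd13 were higher by 0.28, 0.22 and 0.33 with the fusion protein and by 0.50, 0.38 and 0.32 with the combination. Psmd12 lost the fusion protein call with trends removed (0.078, adjusted p = 0.191).

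The structural lid subunit Psmd3 went the other way. It measured 10.89, 10.45, 10.48, 10.45 and 10.52 with vehicle, 10.11, 10.35 and 10.49 with the fusion protein, and 9.96, 9.95, 10.29, 10.06 and 10.26 with the combination. Vehicle library 1 stood well above its group, and every combination library lay below every vehicle library. The difference was -0.24 (SE 0.10, adjusted p = 0.0681) with the fusion protein and -0.45 (SE 0.10, adjusted p = 0.00177) with the combination. Without vehicle library 1 these were -0.16 (adjusted p = 0.185) and -0.37 (adjusted p = 0.0054). Without fusion protein library 5 the fusion protein difference passed (-0.28, adjusted p = 0.0484). Psmd11, another structural lid subunit, did not pass in either comparison, at -0.22 (adjusted p = 0.0969) and -0.02 (adjusted p = 0.915). Without fusion protein library 2 the first passed (-0.27, adjusted p = 0.0447).

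The assembly chaperones Psmd5, Psmd9 and Psmd10 help to join the base and are not part of the finished particle. Psmd10 was higher in both comparisons. It measured 8.67, 8.71, 8.70, 8.71 and 8.76 with vehicle, 8.91, 8.99 and 9.16 with the fusion protein, and 9.06, 9.18, 9.15, 9.27 and 9.05 with the combination. Both treated groups lay above vehicle, by 0.30 and 0.43. With trends removed both calls of Psmd10 were lost, at 0.053 (adjusted p = 0.458) and 0.076 (adjusted p = 0.294). Psmd5 measured 10.55, 10.60, 10.55, 10.69 and 10.52, then 10.62, 10.74 and 10.83, then 11.02, 11.07, 10.91, 10.92 and 11.04. Its combination libraries lay above all others. The difference of Psmd5 was 0.15 with the fusion protein, which did not pass (adjusted p = 0.0637), and 0.41 with the combination (adjusted p = 6.92e-05). The first passed without fusion protein library 3 or vehicle library 4 (adjusted p = 0.0489 and 0.0463), and with trends removed (0.22, adjusted p = 0.00334). Psmd9 passed in neither comparison, at 0.18 (adjusted p = 0.219) and 0.03 (adjusted p = 0.831).

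The tissue-restricted subunits were near the floor of the table. Psma8, an α subunit of the testis, measured 6.43 to 7.07 over all 16 libraries, and Psmb11, the thymus-specific catalytic subunit, 6.17 to 6.35, where the lowest value of the table is 5.99 and a scaled value of 1 reads 6.17. Neither was tested. The processed pseudogenes Psmb5-ps, Psmb6-ps and Psmb7-ps2 reached scaled values of at most 2, 1 and 3.

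**Figure D4:**
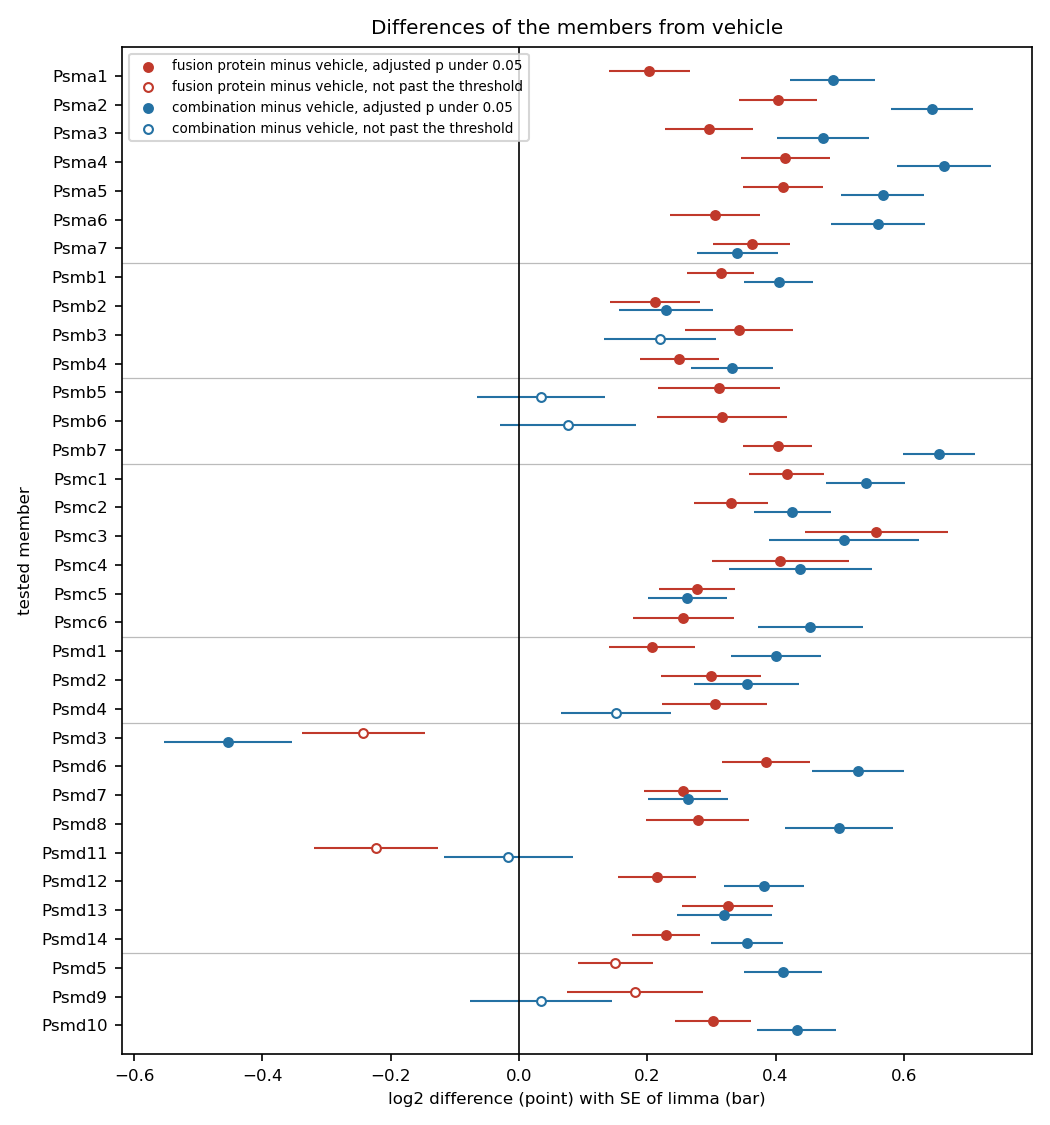
Log2 difference from vehicle (horizontal axis; bars are the SE of limma) of each tested subunit (vertical axis) with the fusion protein (red) and the combination (blue), filled where the adjusted p is under 0.05. Most points lie between 0.2 and 0.6, with Psmd3 and Psmd11 left of zero and Psmb5 and Psmb6 near zero with the combination.

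Set side by side, 26 subunits were called higher in both comparisons. Psmb3, Psmb5, Psmb6 and Psmd4 were called higher with the fusion protein alone, and Psmd5 with the combination alone. Psmd3, Psmd9 and Psmd11 were called higher in neither, and Psmd3 was called lower with the combination. Passing in 1 comparison alone does not show that the treatments differ, so the treatments were also compared directly. With the fusion protein 1 subunit was higher than with the combination and 9 were lower, where 7.35% of all tested genes were higher and 22.2% lower. The median difference was -0.11, beside -0.09 for all tested genes. This direction depended on the scaling: under quantile normalization the median of the subunits was 0.05, with 4 higher and none lower. Over all tested genes, 984 were higher and 2966 lower, and under quantile normalization 972 and 1411.

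The 9 subunits lower with the fusion protein were Psma1 (-0.29), Psmd5 (-0.26), Psma6 (-0.25), Psmb7 (-0.25), Psma4 (-0.25), Psma2 (-0.24), Psmd8 (-0.22), Psmd1 (-0.19) and Psmd12 (-0.17). For Psma1, Psma2, Psmb7 and Psmd5 the fusion protein and combination libraries did not overlap. The share of all tested genes without such overlap was not counted. With trends removed Psma1 (-0.14, adjusted p = 0.0506) and Psma2 (-0.08, adjusted p = 0.294) lost their calls. Psmb7 kept its call when any 1 library was left out, with adjusted p values of 0.00349 to 0.0209, and lost it under quantile normalization (-0.09, adjusted p = 0.171). The calls of Psmd1, Psmd8 and Psmd12 were lost in 7, 12 and 12 of the 16 fits that left out 1 library. Without combination library 1, 15 subunits were lower and 2 higher, beside 4046 and 1201 of all 13385 tested genes.

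Psmb5 was the 1 subunit higher with the fusion protein than with the combination, by 0.28 (SE 0.10, adjusted p = 0.0357). That call was lost without combination library 2, 4 or 5 or fusion protein library 4, 5 or 6, with adjusted p values of 0.0607 to 0.111. Psmb6 differed by 0.24 and did not pass (adjusted p = 0.0774), except without combination library 1 (0.30, adjusted p = 0.0302). Under quantile normalization Psmb5 and Psmb6 both passed, by 0.32 (adjusted p = 0.0431) and 0.38 (adjusted p = 0.0448).

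GC content moved with the difference between the treatments. Across the 34 subunits, Pearson's r of the fusion protein minus combination difference with GC content was 0.63, and across all 13385 genes it was 0.46; genes are not independent replicates, and all share the same libraries. In the 17 subunits with GC content of at most 45.3%, the median difference was -0.18, with 7 lower and none higher. In the other 17 it was 0.01, with 2 lower and 1 higher. Psmb5 and Psmb6, at 49.9% and 50.6%, are among the more GC-rich subunits. The libraries' own slopes of expression on GC content were -0.03 to 0.15 with vehicle, -0.05 to 0.10 with the fusion protein and -0.15 to -0.01 with the combination. Their means were 0.05, 0.03 and -0.08. The ranges overlapped, and a difference between the groups was not tested.

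After trends with GC content and exonic length were removed from every library, fewer subunits passed against vehicle. With the fusion protein 20 were then higher and 1, Psmd11, lower, with a median of 0.22 (12.6% of all genes were higher). With the combination 23 were higher and 1, Psmd3, lower, with a median of 0.25 (15.5% of all genes were higher and 10.6% lower). Between the treatments none was higher and 6 were lower, Psma4, Psma6, Psmb4, Psmb7, Psmd5 and Psmd8, with a median of -0.04 (4.94% higher and 6.79% lower among all genes). The correlation with GC content across the subunits was then 0.05. The difference of Psmb5 between the treatments was 0.16 and did not pass (adjusted p = 0.105), and that of Psmb7 was -0.14 (adjusted p = 0.0325). Length also moved with the results: the subunits have a median exonic length of 2814 bases against 4616 over all tested genes, and r of the fusion protein minus vehicle difference with log2 length was -0.41 across the subunits and -0.41 across all genes.

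**Figure D5:**
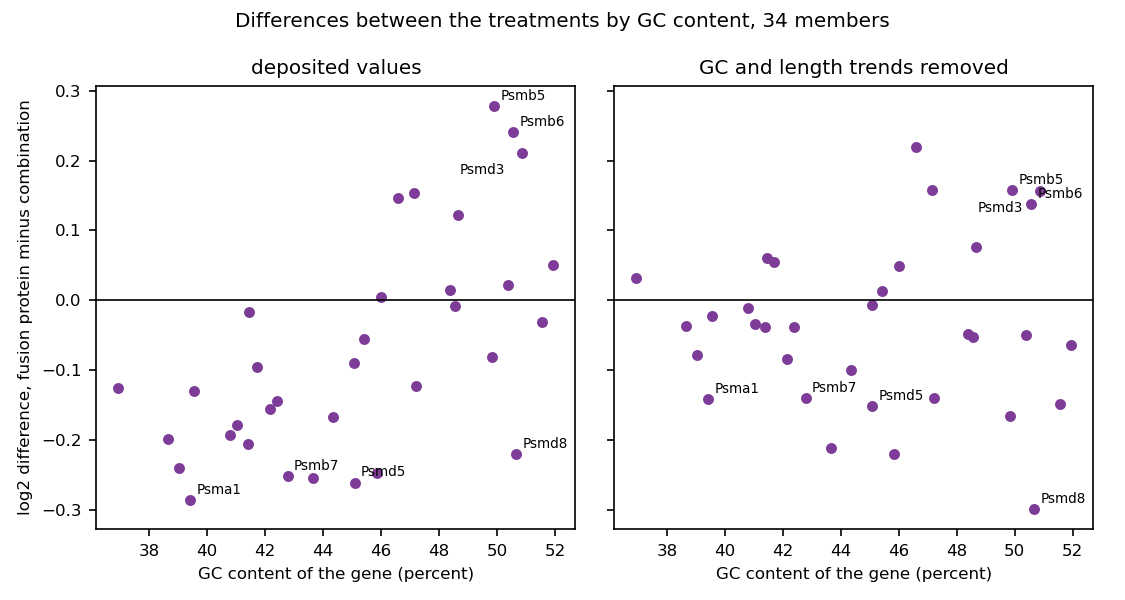
Log2 difference of fusion protein minus combination (vertical axis) against GC content (horizontal axis) for the 34 tested subunits, with the deposited values (left) and with trends removed (right). On the left, r is 0.63 and Psmb5 and Psmb6 are at the upper right, while on the right r is 0.05.

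The subunits' deviations within groups were also compared. The mean pairwise correlation of residuals from the group means was 0.12 between subunits and 0.04 between all tested genes, and with trends removed 0.12 and 0.004. The highest was 0.93, between Psmc3 and Psmd4, and the lowest -0.85, between Psma1 and Psmd4. These correlations are over 16 libraries, share their depth and scaling, and are given as a description. Psmd3, which fell with the combination, had a residual correlation of 0.58 with the median of the other subunits.

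The inducible subunits Psmb8, Psmb9 and Psmb10, which replace Psmb5, Psmb6 and Psmb7 in the immunoproteasome, showed another pattern. All 3 were higher with the fusion protein than with vehicle, by 0.98, 0.36 and 0.60, and none passed with the combination, at -0.14, -0.31 and -0.15. Directly compared, all 3 were higher with the fusion protein than with the combination, by 1.12, 0.67 and 0.75. The balance with the constitutive partner was taken as the difference of log2 values within a library. It was compared by 9 two-sided exact permutation tests, with Benjamini-Hochberg adjustment over them. Variance stabilisation compresses values near the floor of the table, so for a gene of low value the balance is not a log2 ratio. Psmb8 minus Psmb5 was -0.77 ± 0.36 with vehicle (SD, n = 5), -0.11 ± 0.44 with the fusion protein (n = 6) and -0.95 ± 0.23 with the combination (n = 5). The fusion protein differed from vehicle by 0.66 (exact p = 0.0216, adjusted p = 0.039) and from the combination by 0.84 (exact p = 0.00433, adjusted p = 0.0195).

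Psmb10 minus Psmb7 was -2.56 ± 0.38 with vehicle, -2.37 ± 0.20 with the fusion protein and -3.37 ± 0.25 with the combination. The combination was lower than vehicle by a difference of -0.81 (exact p = 0.0159, adjusted p = 0.0357), and the fusion protein was higher than the combination by 1.00 (exact p = 0.00433, adjusted p = 0.0195). For Psmb9 minus Psmb6 the fusion protein exceeded the combination by 0.43 (exact p = 0.00866, adjusted p = 0.026), and neither treatment passed against vehicle. All 3 inducible subunits are also more GC-rich than the median subunit, at 53.2%, 50.9% and 54.8%. With trends removed, their median difference from vehicle was 0.52 with the fusion protein and -0.04 with the combination. The median of fusion protein minus combination was then 0.60. On the deposited values these medians were 0.60, -0.15 and 0.75. The balances were not taken with trends removed.

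Other genes of the pathway were counted in lists of their own, with differences given for the fusion protein and then the combination. For all tested genes the shares were 12.0% higher and 13.7% lower with the fusion protein, and 24.2% and 12.3% with the combination. Of 5 chaperones of 20S assembly, the maturation factor Pomp was higher in both comparisons (0.31 and 0.38), Psmg2 with the combination (0.25, while 0.13 with the fusion protein did not pass), and Psmg4 did not pass in either (0.07 and -0.16). Of 5 activator and inhibitor genes, those of the PA28 activator, Psme1 (0.75 and 0.25) and Psme2 (0.59 and 0.22), were higher in both, and Psme4, for another activator, passed in neither (-0.19 and 0.22). Among 7 further subunits and bound factors, 2 were higher with the fusion protein and 5 with the combination. Shfm1, the small lid subunit also called Sem1, was higher in both (0.49 and 0.30), as was the deubiquitinase Uchl5 (0.33 and 0.39), while the deubiquitinase Usp14 passed with the combination (0.42) and not with the fusion protein (0.18).

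The shuttle receptors, which carry tagged proteins to the proteasome, did not rise. None was higher in either comparison, and Ubqln2 (-0.52 and -0.46) and Ubqln4 (-0.25 and -0.21) were lower in both. Of 7 genes linked to transcription of the subunits, none passed with the fusion protein and 2 were higher with the combination. The latter count is near the 24.2% of all tested genes that were higher. The 2 were Ngly1 (0.29), which processes Nfe2l1, and Nfyb (0.27), a part of the CCAAT-binding factor. Nfe2l1 itself did not pass (-0.14 and -0.06). Of the 5 tested genes of ubiquitin and its activation, Ubb (0.52 and 0.38) and Rps27a (0.47 and 0.45), which both encode ubiquitin, were higher in both comparisons, and the activating enzyme gene Uba6 passed in neither (0.0002 and 0.23). Of 5 genes of the p97 segregase, which pulls tagged proteins out of complexes, Vcp was higher in both (0.24 and 0.39), Ufd1l, its cofactor, with the combination (0.39, while 0.11 with the fusion protein did not pass), and Nploc4, another cofactor, in neither (-0.16 and 0.10).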

How the data were processed

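Polyadenylated RNA of 16 libraries in 3 groups was measured. Per the submitters' processing notes, FastQC, STAR, HTSeq, DESeq2 and build GRCm38 were used, with no versions. The deposited values, per the file headers a vsd table, hold log2 expression after variance stabilisation, scaled between libraries by the authors in a step not given in the sources used here. The table also holds GC content as a percentage per gene, used as deposited, and p-values deposited by the authors for a comparison that the header does not name, not used here.

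The transform was inferred (2 parameters) from the table's 60 lowest values among 11441 different ones, and it decoded 100% of values to whole scaled values within 0.01. Genes with a mean of at least 6.99 (scaled value 31.8) were tested with limma 3.58.1 (R 4.3.3, trend and robust), the 3 groups in 1 model, with Benjamini-Hochberg adjustment over the 13385 genes tested and a threshold of 0.05. The model was checked on simulated data. Trends were removed per library by natural splines (4 degrees of freedom) on GC content and log2 exonic length from GENCODE. Every member is named; values per library are given for Psmb5, Psmb6 and Psmb7, for the largest and smallest fusion protein difference in each class, and for the 6 members with the lowest p between the treatments. Pathway lists name up to 3 genes of lowest p (some are not reported here), and marker genes are named where not detected. The members and lists were chosen with earlier results of these data known. Alternatives were other filters, scalings, variance models, covariates, thresholds and left-out libraries. A change of sign was taken as a reversal where either fit called the gene.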

Additional observations from a re-analysis of the deposited data

Results flagged for a closer look

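Of 105 sets of values, those of the 34 tested subunits and of their median in each of 3 groups, 12 (all of single subunits) held a library that stood apart by Dixon's criterion, where chance alone gives about 1 in 20. On the log2 scale, vehicle library 4 was high for Psma2 (11.16), Psma4 (10.83) and Psma5 (10.18). Vehicle library 1 was high for Psmb4 (11.11) and Psmd3 (10.89), and vehicle library 3 was low for Psmd12 (11.29). Fusion protein library 2 was high for Psmc2 (12.32) and Psmd12 (11.76), and fusion protein library 5 was high for Psma7 (11.57). Combination library 1 was low for Psma4 (11.12) and Psmd7 (11.59), and combination library 2 was low for Psmc3 (12.14).

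The effects of the treatments differed from each other, by limma's test of the difference itself, for 10 subunits. The fusion protein minus combination difference was -0.29 for Psma1, -0.24 for Psma2, -0.25 for Psma4, -0.25 for Psma6, -0.25 for Psmb7, -0.19 for Psmd1, -0.22 for Psmd8, -0.17 for Psmd12 and -0.26 for Psmd5. It was 0.28 for Psmb5. The 9 lower of 34 stand beside 22.2% of all tested genes, a share near that of the subunits, and under quantile normalization none of the 9 was called.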

How the results depend on the processing

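The count of subunits higher than vehicle stayed between 20 and 31 with the fusion protein over the alternatives run, and with the combination it fell to 17 with trends removed and label number as a covariate together. In that fit 911 of all 13370 genes were higher with the combination. The number lower with the fusion protein, 0 in limma's fit, was 1 under quantile normalization, array weights, label number as a covariate, and trends removed with or without label number, and 2 at a threshold of 0.1. The number lower with the combination was 2 with no filter on low values. Between the treatments, 1 higher and 9 lower became 3 and 14 at a threshold of 0.1, 0 and 3 at 0.01, 4 and 0 under quantile normalization, and 3 and 18 with array weights. Over all 13385 tested genes array weights gave 1590 higher and 4685 lower. The number higher was 0 with no filter, 0 with trends removed and 4 with label number as a covariate, and the number lower was 1 with trends removed and label number together. The causes of these changes were not tested, apart from the thresholds, which act by construction.

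Leaving out 1 library at a time gave 24 to 30 higher and 0 to 1 lower with the fusion protein. With the combination 27 to 28 were higher and 1 lower, and between the treatments 0 to 2 higher and 6 to 15 lower. Over all 13385 tested genes the same fits gave 1165 to 1758 higher and 1331 to 2086 lower with the fusion protein. With the combination they gave 2644 to 3751 higher and 1389 to 1803 lower. Between the treatments they gave 547 to 1201 higher and 1452 to 4046 lower. No subunit was higher between the treatments without combination library 2, 4 or 5 or fusion protein library 4, 5 or 6. With trends removed, Psmb2 reversed to -0.049 with the fusion protein and -0.11 with the combination. With label number as well, it was -0.057 and -0.16, Psmd14 was -0.0093 with the combination, and Psmd1 was 0.086 between the treatments. Using only samples numbered 1 to 8, chosen after seeing the data, 23 subunits were higher with the fusion protein. Over all tested genes 1026 were.

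The labels do not say that the replicate numbers of the titles pair the libraries. Same-numbered libraries of different groups had residual correlations of -0.20 to 0.60 (median 0.06, 15 pairs). Differently numbered ones had -0.86 to 0.80 (median 0.007, 70 pairs). With ranges this wide, these correlations cannot exclude a pairing. With the replicate block 27 subunits were higher with each treatment, and between the treatments 0 were higher and 9 lower. Of all 13385 tested genes 1538 were then higher with the fusion protein and 3474 with the combination. Between the treatments 889 of them were higher and 2540 lower. As the values carry no read depth, its effect on low genes such as Psma8 and Psmb11 cannot be given.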
